A study of Mus musculus with 28 samples.

Results

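Subclone 4 is 1 of 5 cell lines grown from single cells of WT5, a wild-type mIMCD-3 line that had itself been grown from 1 cell. It was compared here with subclones 1, 2, 3 and 5. The rule took the 4 libraries of subclone 4 (replicates 1 to 4) and the 16 libraries of the other 4 subclones, out of 28 libraries in the whole series, and kept a gene if its mean reached 1 TPM (a level scaled so that every library has the same total) in subclone 4 or over the 16 other libraries. Of 45706 genes listed, 21640 had a value above 0 in at least 1 of these 20 libraries and 12351 were kept.

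mIMCD-3 cells are epithelial cells taken from the collecting duct of the inner medulla of the kidney, in a mouse that carried an SV40 transgene. The study asked how far such lines differ when they are derived from single cells, which matters because a knockout line is usually compared with its parent after single-cell sorting. All 5 subclones were wild type and untreated, were sorted from WT5 as single cells and expanded, and gave RNA 4 days after the cells had become fully confluent. Each subclone is 1 clone. No label says that the 4 libraries of a subclone came from separate cultures. For polyclonal and monoclonal lines the study's methods speak of biological replicates, but a figure legend on the polyclonal and WT5 libraries speaks of technical ones. The p-values below therefore measure only the spread between libraries of a clone.

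The inner medullary collecting duct is the last part of the kidney's tubule system, where water and urea are taken back under the control of vasopressin. Its cells carry aquaporins, urea transporters, the epithelial sodium channel and a primary cilium. Immortal epithelial lines often gain or lose chromosomes or chromosome arms. When that happens most genes of the affected stretch shift together and by a similar factor, while a gene switched on or off in a clone stands alone among its neighbours.

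The expression of the collecting duct line was recognisable in every library. Of 22 markers of collecting duct and kidney epithelium, 16 were kept and 14 exceeded 10 TPM, with a summed level of 2447 to 2554 TPM in subclone 4 and 2320 to 2946 TPM in the others, although Aqp2, the vasopressin-regulated water channel, was at 0 throughout. The 8 fibroblast markers summed to at most 1.54 TPM in any library, with Col3a1, Col1a2 and Lum at 0, and the 5 endothelial markers to at most 0.09 TPM. Of 5 leukocyte markers, Cd3e and Adgre1 were at 0, and the lysosomal protein gene Cd68 was at 3.01 to 4.52 TPM in subclone 4 against 1.45 to 2.77 TPM in the others. The 7 markers of nephron parts summed to 10.5 to 11.1 TPM against 6.77 to 22.6 TPM. Libraries of 1 subclone correlated at 0.971 to 0.984 (Pearson's r over the kept genes), no pair was identical, and 16811 to 17004 genes were detected in subclone 4 against 16270 to 16997 in the others. TPM keeps no record of the number of reads, so the depth of each library is unknown.

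Subclone 4 differed from the mean of the other 4 subclones in 1730 genes, 14% of those tested, at an adjusted p below 0.01 (limma on log2(TPM + 0.1), Benjamini-Hochberg adjustment). Of these, 1002 (8.11%) were higher and 728 (5.89%) lower. When values were z-score transformed within each library, 2601 genes were called, 1192 of them higher and 1409 lower, so the balance of the 2 directions depends on the scaling. Most of the differences were small: 169 genes (1.37%) differed more than 2-fold, 123 (0.996%) higher and 46 (0.372%) lower. Whatever the size of the difference, the 4 libraries of subclone 4 lay wholly outside the range of the 16 others in 935 genes (7.57%), above it in 526 (4.26%) and below it in 409 (3.31%). Among the 169 genes past 2-fold this held for 103 (0.834% of the genes tested), 74 above (0.599%) and 29 below (0.235%). The filter itself favours such genes, since 241 genes were kept only through their mean in subclone 4. Of these, 55 were called higher by more than 2-fold, beside 123 such genes in all. For the 241 genes the direction of the difference was fixed by the filter. Among those named below they include Slc14a2, Fam84a, Tmem30b, Osr1, Podxl2, Antxr1, Hebp1, Ccser1, Cdk14, Macrod2, Jam3, Kcnj2 and Aqp1. Another 180 genes were kept only through their mean over the 16 other libraries, which fixed their direction as lower. Those named below include Cftr, Spin2c, Vdr, Twist1, Spon2 and Zdhhc15. The counts of list members given below take in genes of both kinds.

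The called genes were spread unevenly over the genome. Chromosome 12 held 17.2% of them and 2 stretches of chromosome 6 held 16.4%, although these regions contain 429 and 335 of the 12351 genes. On chromosome 12, 292 genes (68.1%) were higher and 6 lower. In the lower stretches of chromosome 6, 278 genes (83.0%) were lower and 6 higher. A stretch of chromosome 6 with 41 genes moved the other way, with 30 (73.2%) higher and 1 lower. On the other 17 chromosomes besides 5, 6 and 12, the share of genes called higher was 3.29% to 7.53% and the share called lower 2.56% to 6.14%. Outside chromosomes 5, 6 and 12, 9.23% of 10493 genes were called, 544 higher and 425 lower.

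**Figure D1:**
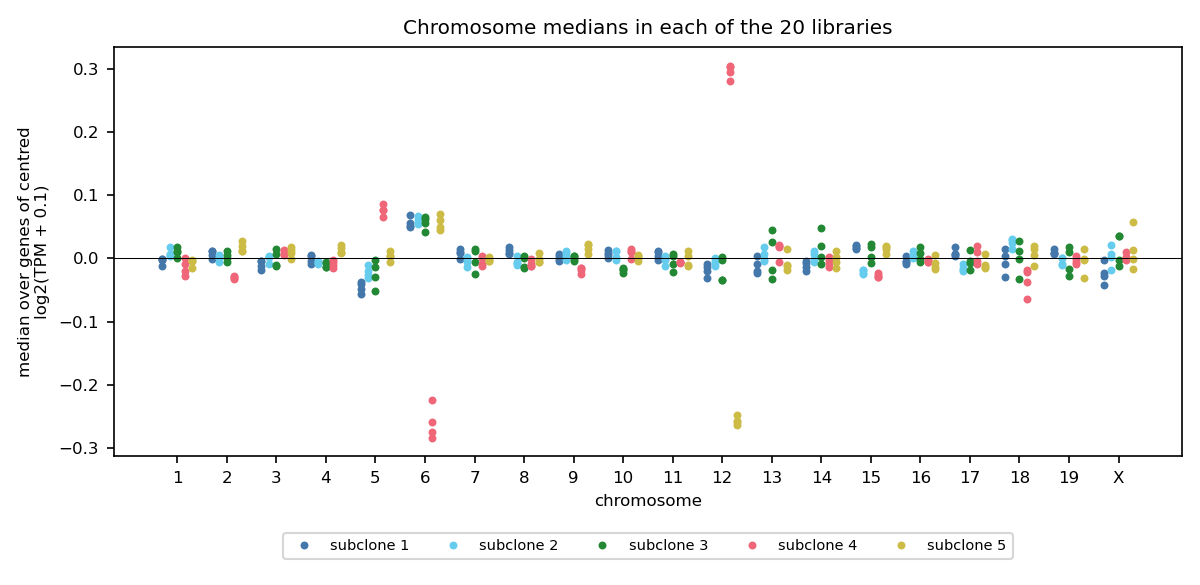
Median over the genes of each chromosome of log2(TPM + 0.1), centred on each gene's mean over the 20 libraries and on the library's median over all genes; each point is 1 library and the colours are the 5 subclones. The 4 libraries of subclone 4 sit near 0.3 on chromosome 12 and between -0.28 and -0.22 on chromosome 6, apart from all others, and those of subclone 5 sit near -0.26 on chromosome 12.

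Chromosome 12 was shifted upwards as a whole. After centring each gene on its mean over the 20 libraries, the median over its 429 genes was 0.295, 0.305, 0.303 and 0.281 (log2) in the 4 libraries of subclone 4, and between -0.263 and 0.002 in the 16 others. No library of another subclone came near those of subclone 4. The 16 others were themselves of 2 kinds, because subclones 1, 2 and 3 had means of -0.019, -0.006 and -0.017 and subclone 5 a mean of -0.257. The shift of subclone 4 was therefore 0.37 against all 4 other subclones, a level of 129%, and 0.31 against subclones 1 to 3 alone, a level of 124%. The level was above that of the others for 407 of 429 genes (94.9%), and the middle part of the genes, from the lower to the upper quartile, lay between 0.27 and 0.50. All 12 windows of 10 Mb along the chromosome were above 0, with medians from 0.31 to 0.53. The shift had the same size in weakly, moderately and strongly expressed genes, with medians of 0.37, 0.36 and 0.38 over genes of low, middle and high level, in 3 groups of equal size.

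These sizes can be set beside plain arithmetic on copy number. If expression followed dosage, 1 additional copy would give 150% on a background of 2 copies (0.58 in log2), 133% on 3 (0.42) and 125% on 4 (0.32). The loss of 1 copy would leave 50% of 2 copies (-1), 66.7% of 3 (-0.58) and 75% of 4 (-0.42). The level of chromosome 12, 124% or 129% depending on the comparison group, lay nearest to the values for 4 and 3 copies and below that for 2. Copy number itself was not measured in these files, and in bulk RNA a change in every cell and a larger change in some of the cells cannot be told apart. The study did stain chromosomes by multicolor in situ hybridisation in monoclonal wild-type lines, WT5 among them, and in Pkd1 knockout lines. It reported polyploidy and saw no structural aberrations. The subclones compared here are not named among the lines it stained.

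The most highly expressed genes of chromosome 12 moved with the shift, each by somewhat more than its size of 0.37. Rps29, a protein of the small ribosomal subunit, was at 2941, 3089, 3174 and 2358 TPM in subclone 4 and 1295 to 2537 TPM (median 2073) in the others, a log2 difference of 0.54 ± 0.10. Its neighbour Rpl36al differed by 0.52 ± 0.07, Rps7 by 0.44 ± 0.08, the ATP synthase subunit gene Atp5mpl by 0.41 ± 0.08 and the 14-3-3 protein gene Ywhaq by 0.55 ± 0.04. For Ywhaq the 4 libraries of subclone 4, at 961, 933, 939 and 926 TPM, were all above the others, at 502 to 759.6 TPM (median 666). All 5 were called higher, Atp5mpl not without replicate 1 of subclone 4 (adjusted p = 0.013), and Rps7, Rps29, Rpl36al and Ywhaq share 24.9% to 59.9% of their sequence in 50-base stretches with other genes, so that their reads may be partly assigned elsewhere. Some genes chosen after their values were seen rose by more than the chromosome's upper quartile of 0.50. They were Adam17, the protease that sheds growth factors and cytokines (0.56 ± 0.07), and the differentiation inhibitor Id2 (0.57 ± 0.05). Dnajb9, a chaperone of the endoplasmic reticulum, rose by 0.62 ± 0.05. Others, likewise picked with their values known, did not follow the shift. The growth factor gene Tgfb3 was called lower (-0.53 ± 0.09). The integrin gene Itgb8 (0.04 ± 0.08) and the cilium gene Wdr35 (0.13 ± 0.07) were not called.

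Against the shift of their own chromosome, 395 of the 429 genes (92.1%) lay within 0.5 of it and 17 departed by more than 1. When each library was centred on the chromosome's median, 71 genes remained called out of 429 (16.6%), 43 higher and 28 lower, beside 9.35% of all genes in the same fit. 13 of them differed more than 2-fold. The 3 named next rose well above the shift. Fam84a, now named Lratd1, was at 2.69, 3.75, 3.06 and 3.22 TPM in subclone 4 and 0.02 to 1.09 TPM (median 0.115) in the others, with subclone 5 at a mean of 1.002 TPM and subclones 1, 2 and 3 at 0.133 TPM or less. The difference was 3.55 ± 0.25 (adjusted p = 2.1e-09) on a chromosome shifted by 0.37. Tmem30b, a subunit of lipid flippases, was at 4.9, 6.29, 6.04 and 6.3 TPM against 0.33 to 1.51 TPM (median 0.57), a difference of 2.96 ± 0.15 (adjusted p = 1.5e-11). Osr1, a transcription factor of early kidney development, was at 3.53, 3.13, 4.06 and 4.23 TPM against 0.1 to 1.48 TPM (median 0.56), a difference of 2.6 ± 0.27 (adjusted p = 3.9e-07). In all 3 the 4 libraries of subclone 4 were above every other library, and all 3 were kept only through their mean in subclone 4.

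Another 3 genes of chromosome 12 went the other way. Twist1, a transcription factor of mesenchyme, was at 0.08, 0, 0.03 and 0.2 TPM in subclone 4 against 0.46 to 9.46 TPM (median 0.85), a difference of -3.17 ± 0.22 (adjusted p = 2.7e-09). Its level in the others was itself uneven, with a mean of 8.16 TPM in subclone 2 and between 0.642 TPM and 0.948 TPM in subclones 1, 3 and 5. Rnf113a2, a RING finger protein gene, was at 1.69, 1.38, 1.51 and 1.73 TPM against 6.25 to 11.4 TPM (median 7.695), a difference of -2.29 ± 0.06 (adjusted p = 4.1e-15). Stxbp6, a SNARE-binding protein gene, was at 1.65, 1.9, 2.2 and 1.9 TPM against 3.78 to 8.16 TPM (median 4.79), a difference of -1.37 ± 0.08 (adjusted p = 8.2e-11). All 3 lay wholly below the 16 other libraries although most of their neighbours lay above.

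Chromosome 6 was not shifted as a whole but in blocks. Its median over 586 genes was -0.225, -0.259, -0.275 and -0.284 in the 4 libraries of subclone 4 and 0.041 to 0.070 in the others, a difference of -0.32. With 1 breakpoint the chromosome divided between Rpia and Eif2ak3, and a second one fell between Gm10069 and Clec2d. With the number of breakpoints left to a penalty, chosen after the data had been seen, it divided into 5 segments. The same 5 were found with a penalty weight of 8 in place of 4 and in each library of subclone 4 alone, except that 1 boundary moved by 1 gene, Rpia, in replicate 3. In subclones 1, 2, 3 and 5, taken with subclone 4 left out, chromosome 6 stayed in 1 piece with medians between -0.009 and 0.009.

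The first segment ran from 3.33 to 25.8 Mb (Gm20559 to Pot1a, 50 genes, GRCm38) and was lower. Its library medians were -0.442, -0.412, -0.421 and -0.436 in subclone 4 and 0.041 to 0.213 in the others, a difference of -0.54 or a level of 69.0%, and 46 of its 50 genes were below 0. The second segment, from 28.2 to 53.7 Mb (Gm42547 to Creb5, 144 genes), was not shifted, at 0.01. The third ran from 54.0 to 70.8 Mb (Chn2 to Rpia, 41 genes) and was higher, with medians of 0.345, 0.377, 0.344 and 0.296 against -0.146 to -0.006, a difference of 0.42 or a level of 134%, and 38 of its 41 genes were above 0. The fourth and longest ran from 70.8 to 128.5 Mb (Eif2ak3 to Gm10069, 285 genes) and was lower, with medians of -0.412, -0.430, -0.427 and -0.445 against 0.073 to 0.140, a difference of -0.53 or a level of 69.1%, and 270 of its 285 genes were below 0. The last, from 129.2 to 149.6 Mb (Clec2d to Bicd1, 66 genes), was at 0.04. In all 3 shifted segments the libraries of subclone 4 were clear of the 16 others. Against the arithmetic above, the lower segments, at 69.0% and 69.1%, lay between the loss of 1 of 3 copies (66.7%) and of 1 of 4 (75%), and the higher segment, at 134%, lay beside 1 additional copy on 3 (133%). The lower segments had medians of -0.51, -0.57 and -0.54 over genes of low, middle and high level.

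**Figure D2:**
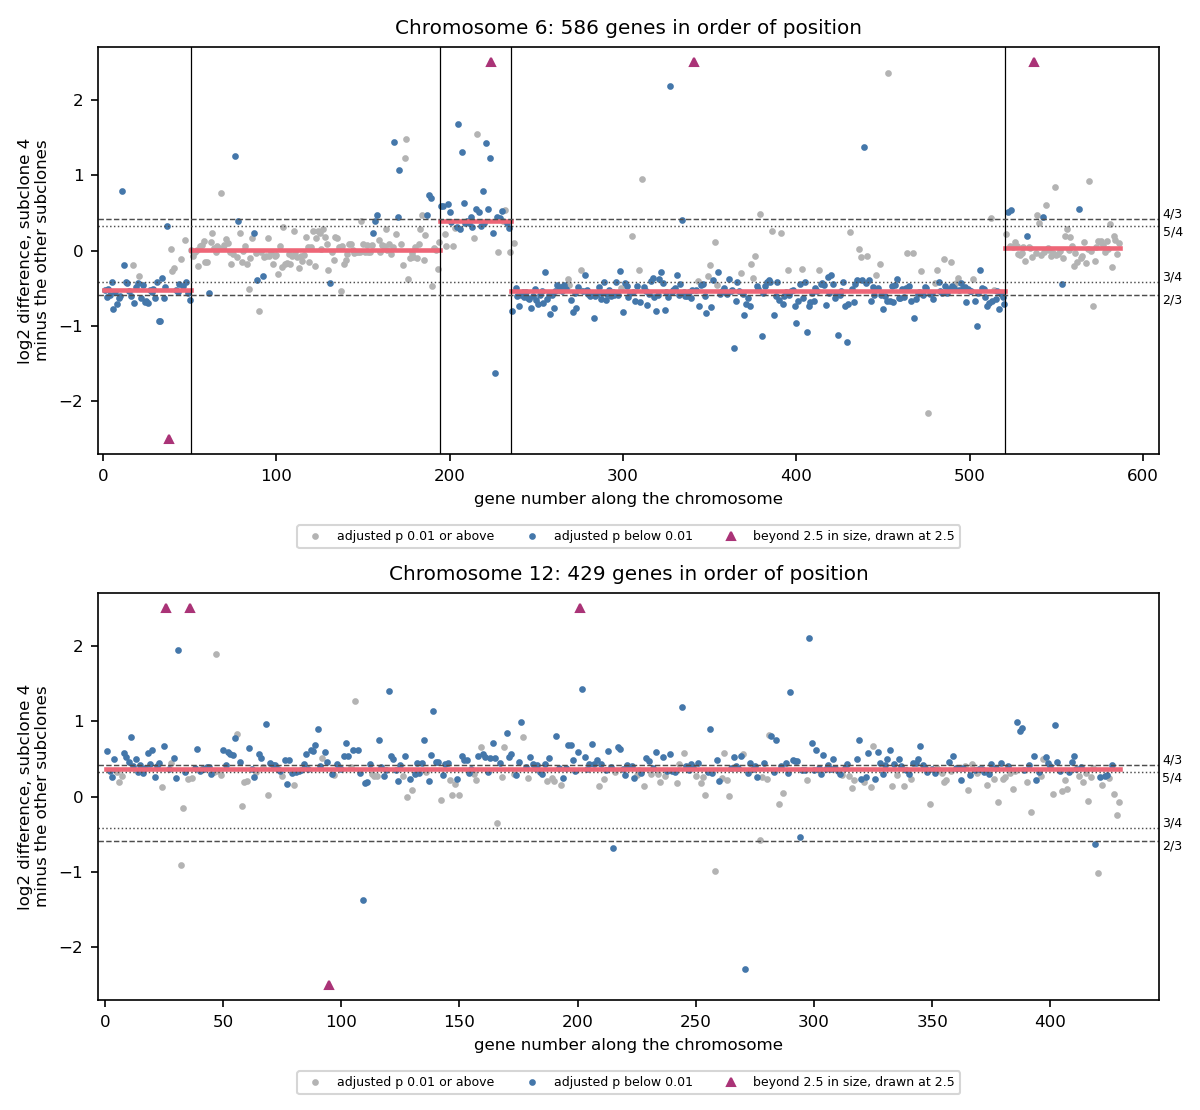
Log2 difference, subclone 4 minus the mean of the other subclones, for each gene of chromosome 6 (586 genes) and chromosome 12 (429 genes) in order of position. Red lines are segment medians, vertical lines the segment boundaries, and the dashed and dotted lines mark 1 copy lost from or added to 3 and to 4; chromosome 6 changes level at 4 places and chromosome 12 at none.

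The level changed between neighbouring kept genes at each boundary, although single genes departed from it on either side. Before the first one Pot1a was at -0.66, and after it, across a stretch without a kept gene, Gm42547 was at 0.00 and Zfp800 at -0.07. Creb5, at 0.12, was followed by Chn2 and Prr15 at 0.59, then by Wipf3 at 0.22 and Fkbp14 at 0.06. Serbp1 (0.36) and, beyond it, Rpia (-0.02) were followed by Eif2ak3 (-0.80), the pseudogene Rpl34-ps1 (0.09) and Krcc1 (-0.50). Fkbp4 (-0.62) and Gm10069 (-0.71) were followed by Clec2d (0.21), Gabarapl1 (0.51) and Magohb (0.06). The step from higher to lower fell within a few genes of Eif2ak3, which encodes PERK, the endoplasmic reticulum kinase of the unfolded protein response. Eif2ak3 was at 20.97, 24.1, 22.8 and 22.8 TPM in subclone 4 and 26.8 to 48.4 TPM (median 39.6) in the others, a difference of -0.8 ± 0.09 (adjusted p = 8.0e-07), or -0.26 relative to its segment. It was the only 1 called of 7 genes that were listed because the study blotted their proteins in other mIMCD-3 lines or because they cause polycystic kidney disease. The others were Pkd1 (-0.33 ± 0.15, adjusted p = 0.13) and Pkd2 (0.19 ± 0.10, 0.2), the disease genes, the Hippo effector gene Yap1 (0.03 ± 0.06, 0.77), the calcium-dependent kinase gene Camk2d (0.07 ± 0.16, 0.82), and the AMP kinase genes Prkaa1 (-0.04 ± 0.06, 0.72) and Prkaa2 (0.24 ± 0.09, 0.055).

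Several genes commonly used as references for constant expression lie in the fourth segment. Gapdh, the glycolytic enzyme, was at 1587, 1750.4, 1728 and 1739 TPM in subclone 4 and 1753 to 2604 TPM (median 2315) in the others, a difference of -0.43 ± 0.06 (adjusted p = 2.1e-05). All 4 libraries were below the lowest of the others, and replicate 1 was lower than the other 3. Tpi1, another glycolytic enzyme gene, differed by -0.41 ± 0.06, the ribosomal protein gene Rpl32 by -0.54 ± 0.11, the actin-binding thymosin Tmsb10 by -0.46 ± 0.07 and the splicing factor gene Hnrnpf by -0.43 ± 0.04. Gapdh, Rpl32, Tmsb10 and Hnrnpf share 26.1% to 49.0% of their sequence with other genes and are uncertain to that extent. In the first segment the 5 most highly expressed genes were also called lower, at -0.52 (Lsm8, of the RNA-binding Lsm ring), -0.48 (Rpa3, of the replication protein A complex), -0.47 (Fam3c), -0.46 (Ndufa4) and -0.41 (Ndufa5), the last 2 of the respiratory chain. Without 1 library of subclone 4 the calls of Rpa3, Ndufa4 and Ndufa5 were lost in some cases, with adjusted p of up to 0.041, 0.013 and 0.018.

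In the higher segment 4 of the most highly expressed genes were called higher, at 0.32 (Gars, glycyl-tRNA synthetase), 0.44 (Gng12, a G protein subunit), 0.44 (Mad2l1, of the spindle checkpoint) and 0.63 (Lsm5). The segments without a shift gave no common direction. In the second, Atp6v1f was at 0.11 and Hnrnpa2b1 at 0.23, neither called, while Akr1b3 (0.24), the aldose reductase that makes sorbitol, Tmem176b (0.24) and the heterochromatin protein gene Cbx3 (0.44) were higher. In the last, Ybx3 (0.04) and Ergic2 (0.07) were not called, the cell cycle inhibitor Cdkn1b (0.19) and Gabarapl1 (0.51), an autophagy gene, were higher, and Ldhb, a lactate dehydrogenase subunit, was lower (-0.45). The calls of Akr1b3, Tmem176b and Cdkn1b were lost without 1 library of subclone 4, with adjusted p of up to 0.019, 0.025 and 0.035.

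Of the 335 genes in the lower segments, 307 (91.6%) lay within 0.5 of the shift and 9 departed by more than 1. After centring on the segment 53 were still called (15.8%), 29 higher and 24 lower, 6 of them more than 2-fold. Cftr, the cAMP-activated chloride channel mutated in cystic fibrosis, stood far below its segment (chromosome 6 at 18.2 Mb). It was at 0.04, 0.08, 0.07 and 0.02 TPM in subclone 4 and 1.73 to 3.76 TPM (median 2.46) in the others, where the means of the 4 subclones ran from 2.02 TPM to 3.17 TPM. The transcript was close to absent in every library of subclone 4 and present in every other. The difference was -4.11 ± 0.14 (adjusted p = 4.7e-14) in a segment shifted by -0.54, and the level was 17.2-fold lower in subclone 4 on the log2(TPM + 0.1) scale. Of its near neighbours, 2 were also below the segment, but by less. Cav1 and Cav2, which encode the coat proteins of caveolae and were chosen after their values were seen, were at -0.94 ± 0.07 and -0.94 ± 0.06. The receptor gene Met was at -0.36 ± 0.07 and Wnt2 at 0.32 ± 0.08. Wnt2 was thus higher in subclone 4 although its segment was lower. Only subclone 5, with a mean of 1.58 TPM, lay clearly below the 3.65 TPM of subclone 4. The call of Wnt2 was lost without any 1 of 12 single libraries, with an adjusted p of up to 0.037.

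Cav1 was at 59.6, 63.3, 64.5 and 58.8 TPM in subclone 4 against 83.7 to 144 TPM (median 118), and Cav2 at 63.2, 67.7, 70.7 and 71.7 TPM against 110.02 to 176 TPM (median 127). For both genes the groups were apart, and both lay about 0.42 below the segment's median. Podxl2, Antxr1 and Zfp239 stood above the segment, Podxl2 and Antxr1 being kept only through their mean in subclone 4. Podxl2, which encodes the sialomucin endoglycan, was at 2.67, 1.64, 2.08 and 1.3 TPM in subclone 4 and 0 to 0.4 TPM (median 0.03) in the others, a difference of 3.56 ± 0.49 (adjusted p = 1.4e-05). Antxr1, a collagen-binding receptor gene, was at 1.16, 1.64, 1.44 and 1.38 TPM against 0.08 to 0.67 TPM (median 0.185), a difference of 2.18 ± 0.22 (adjusted p = 3.5e-07). Zfp239 was at 3.26, 3.81, 3.1 and 3.43 TPM against 0 to 4.75 TPM (median 2.63), but its difference of 1.37 ± 0.16 (adjusted p = 2.1e-06) came from subclone 5, at a mean of 0.01 TPM, since subclones 1 to 3 were at 2.79 TPM, 3.34 TPM and 3.17 TPM and subclone 4 at 3.4 TPM. The transcription factor genes Foxm1, of the cell cycle, and Tead4, a partner of YAP, were at -0.54 ± 0.09 and -0.7 ± 0.10. They were close to the segment's shift and were likewise picked with their values known.

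The largest differences were far greater than the shifts of the regions and occurred both inside and outside them. Of the 103 genes that differed more than 2-fold with no overlap, 64 lay outside chromosomes 5, 6 and 12, 44 higher and 20 lower, and 10 of the 64 were on the X chromosome. Another 12 lay on chromosome 12, 11 on chromosome 5, and 16 on chromosome 6. As shares of the genes tested, these were 2.8% on chromosome 12 and 1.3% on chromosome 5. On chromosome 6 they were 1.79% in the lower segments, 14.6% in the higher segment (6 of 41 genes) and 1.9% in the unshifted segments (4 of 210 genes). Outside chromosomes 5, 6 and 12 the share was 0.61%. The gene with the largest increase was Zfp503, a zinc finger regulator of development (chromosome 14 at 22.0 Mb). It was at 12.8, 14.02, 13.8 and 13.8 TPM in subclone 4 and 0.01 to 7.18 TPM (median 0.105) in the others, a difference of 4.94 ± 0.17 (adjusted p = 6.4e-14). The level was near 0 in subclones 1, 3 and 5, but subclone 2 had a mean of 6.598 TPM, so the gene was on in 2 of the 5 subclones.

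Slc14a2, the urea transporter gene of the inner medullary collecting duct, rose by 4.12 ± 0.18 (adjusted p = 3.3e-12; chromosome 18 at 78.1 Mb). It was at 4.81, 5.32, 5.33 and 4.5 TPM in subclone 4, at a mean of 2.4 TPM in subclone 5 and at 0.138 TPM or less in subclones 1, 2 and 3. Bex4, on the X chromosome, was at 27.7, 25.3, 28.96 and 23.4 TPM against 0.26 to 5.89 TPM (median 4.23), a difference of 3.29 ± 0.15 (adjusted p = 3.8e-12), with 49.7% of its sequence shared with other genes. Prrg1, also X-linked and encoding a membrane protein with a Gla domain, was at 7.9, 7.5, 10.1 and 8.9 TPM in subclone 4. It was at 0 in all libraries of subclones 1 and 5 and at means of 5.03 TPM and 5.71 TPM in subclones 2 and 3, so the difference of 3.55 ± 0.12 (adjusted p = 4.8e-14) joined 2 kinds of comparison. When the 16 other libraries were taken as 1 group, Prrg1 lost its call, with an adjusted p of 0.088.

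Hebp1, a haem-binding protein gene in the last, unshifted segment of chromosome 6, was at 4.32, 2.82, 2.95 and 4.49 TPM against 0.05 to 0.77 TPM (median 0.345), a difference of 3.14 ± 0.32 (adjusted p = 3.0e-07). Ccser1, in the higher segment, was at 2.74, 2.38, 3.17 and 2.71 TPM against 0.04 to 0.86 TPM (median 0.225) and rose by 3.09 ± 0.25 (adjusted p = 2.0e-08), 2.7 above its segment. Neither increase was of the size of a segment shift. Cdk14, a kinase gene of chromosome 5, was at 1.42, 1.41, 1.63 and 1.13 TPM against 0.02 to 0.24 TPM (median 0.09), a difference of 2.89 ± 0.27 (adjusted p = 1.0e-07). Macrod2, an ADP-ribose hydrolase gene of chromosome 2, was at 3.88, 3.52, 2.96 and 3.52 TPM against 0.19 to 1.43 TPM (median 0.56), a difference of 2.39 ± 0.29 (adjusted p = 3.4e-06). Both were low in all 4 other subclones and, like Hebp1 and Ccser1, were kept only through their mean in subclone 4.

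Below the others, after Cftr, Spin2c of the spindlin family had the largest decrease. It was at 0.21, 0.23, 0 and 0.23 TPM in subclone 4 and 1.13 to 3.64 TPM (median 2.17) in the others, a difference of -3.22 ± 0.25 (adjusted p = 1.1e-08), and missed the threshold under the Welch test (adjusted p = 0.019). Vdr, the vitamin D receptor gene, was at 0.23, 0.29, 0.3 and 0.25 TPM against 1.19 to 2.88 TPM (median 1.58), a difference of -2.29 ± 0.14 (adjusted p = 4.4e-10), lower than in each of the other subclones, whose means ran from 1.27 TPM to 2.16 TPM. Syce2, a synaptonemal complex gene, was at 7.29, 4.87, 5.43 and 3.67 TPM against 19.7 to 47.7 TPM (median 37.4) (-2.7 ± 0.11, adjusted p = 4.7e-13). Zdhhc15, an X-linked palmitoyltransferase gene, was at 0.37, 0.49, 0.55 and 0.43 TPM, but subclone 2 was nearly as low, at a mean of 0.667 TPM, beside means of 5.74 TPM to 6.06 TPM in subclones 1, 3 and 5. Its difference of -2.69 ± 0.09 (adjusted p = 3.3e-14) was thus largely that of a pair of subclones from the other 3.

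The remaining decreases named by the rule included genes of the cytoskeleton and of the matrix. Misp, which positions the mitotic spindle, was at 3.2, 3.82, 3.68 and 2.97 TPM against 11.2 to 21.6 TPM (median 13.1) (-2.04 ± 0.07). Myh14, a non-muscle myosin heavy chain gene, was at 5.71, 5.95, 7.74 and 8.52 TPM against 15.8 to 35.8 TPM (median 23.8) (-1.78 ± 0.11). These 2 genes were clearly lower than in any other library. Chst1, a keratan sulphate sulphotransferase gene, was at 3.73, 4.1, 3.62 and 3.98 TPM against 10.04 to 24.04 TPM (median 14.5) (-1.95 ± 0.09). Spon2, a secreted matrix protein gene, was at 0.71, 0.43, 0.48 and 0.41 TPM against 0.96 to 2.68 TPM (median 2.095) (-1.72 ± 0.16). The retrotransposon-derived gene Rtl8b was at 1.32, 2.25, 1.44 and 1.2 TPM against 8.28 to 14.5 TPM (median 11.1) (-2.77 ± 0.13), although most of its sequence is shared with related copies. The adjusted p of these 5 ranged from 6.4e-14 for Misp to 7.3e-08 for Spon2.

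**Figure D3:**
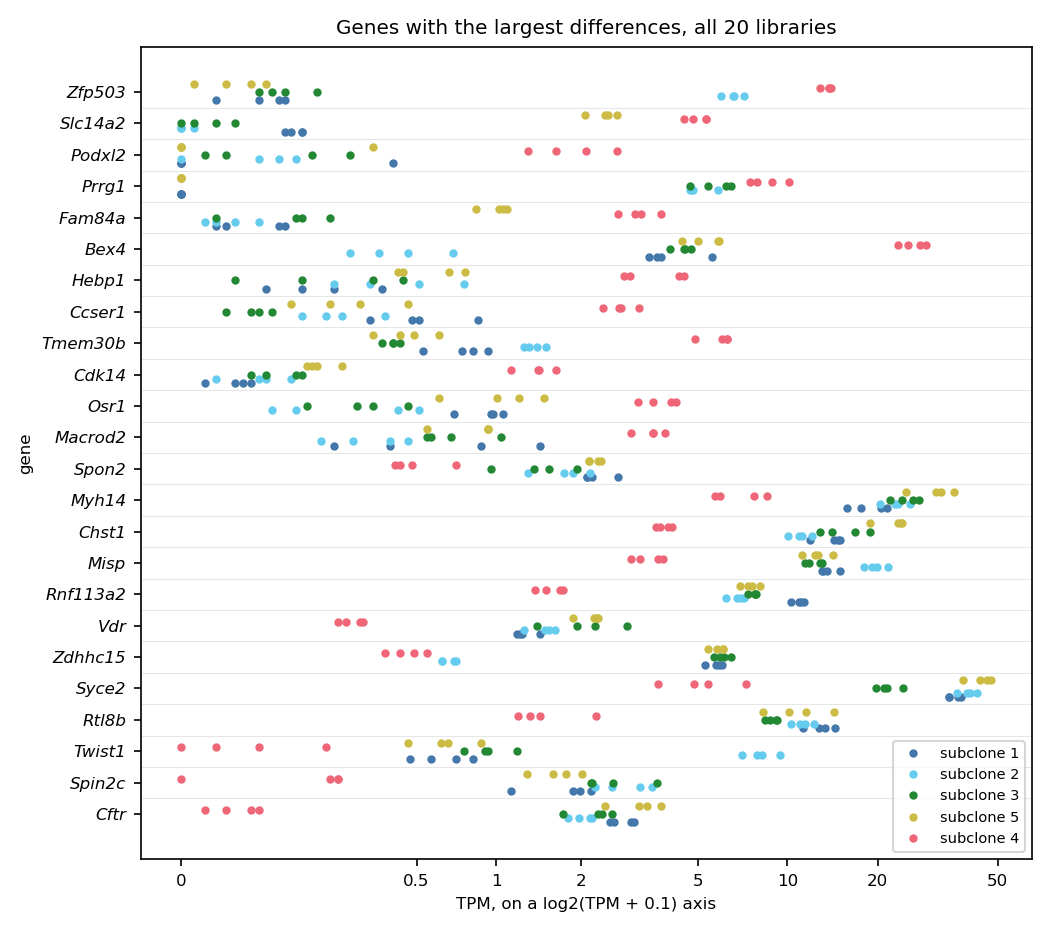
TPM in each of the 20 libraries, on a log2(TPM + 0.1) axis, for the 12 genes that rose most and the 12 that fell most among those differing more than 2-fold with no overlap; colours are the subclones. Subclone 4 is apart from all others in each gene because the genes were chosen so. Zfp503, Prrg1, Zdhhc15, Twist1, Slc14a2 and Fam84a are among those that also divide the other subclones.

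The functional groups were described with lists that hold between 7 and 92 genes, by how many kept members passed the test beside the 8.11% of all genes higher and 5.89% lower. Secreted signals of inflammation were more often higher than lower. Of 21 chemokines, interleukins and related genes, 10 were higher and 2 lower, with a median of 0.39 against 0.00 over all genes. None lay on chromosome 12 or on a shifted segment of chromosome 6. Several of the higher ones, among them Cxcl1, Cxcl2 and Cxcl5, lie on chromosome 5, which had a smaller upward shift of 0.098, described below. Cxcl2, a neutrophil attractant, was at 11.1, 11.2, 12.6 and 10.4 TPM in subclone 4 and 2.99 to 5.05 TPM (median 4.11) in the others (1.49 ± 0.10, adjusted p = 1.6e-09). Its neighbours on chromosome 5, Cxcl1 (0.88 ± 0.05) and Cxcl5 (1.02 ± 0.09), were also above every other library, Cxcl1 at 125, 111, 117 and 116 TPM against 56.2 to 72.97 TPM (median 62.9). Ccl20, on chromosome 1, was at 6.4, 7.96, 5.69 and 6.4 TPM against 1.36 to 3.82 TPM (median 2.85) (1.33 ± 0.17, adjusted p = 5.6e-06). The cytokine gene Il7 (0.94 ± 0.16) and the osteopontin gene Spp1 (0.47 ± 0.07) rose less. The membrane-bound chemokine genes Cx3cl1 (-0.68 ± 0.10) and Cxcl16 (-0.32 ± 0.06) were lower. Of these, Cxcl1, Il7, Spp1, Cx3cl1 and Cxcl16 were chosen after their values were seen. The largest fitted value of the list, 1.84 for the monocyte attractant Ccl2, came from subclone 2, whose mean was 0.065 TPM, and with means of 20.4 TPM, 18.5 TPM and 28.1 TPM in subclones 1, 3 and 5 the 22.9 TPM of subclone 4 did not stand out; the call was lost without subclone 2.

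Genes of the epithelial programme moved in both directions. Of 25 kept genes of collecting duct and kidney epithelium, 6 were higher and 4 lower, which is 40% called beside 14% of all genes, with a median of 0.02. Slc14a2, described above, was the member that rose most. Cdh1, which encodes E-cadherin, was at 57.2, 65.6, 60.2 and 60.03 TPM in subclone 4 and 71.2 to 111 TPM (median 85.9) in the others (-0.51 ± 0.08, adjusted p = 9.0e-05), and the keratin genes Krt8 (-0.22 ± 0.05) and Krt18 (-0.21 ± 0.05) were slightly lower, both calls being lost without 1 library of subclone 4 (adjusted p up to 0.024 and 0.017). Scnn1g, a subunit of the epithelial sodium channel, was higher by 0.43 ± 0.09, but subclone 5 had a mean of 16.02 TPM against 8.43 TPM in subclone 4. Of 17 genes of chloride and bicarbonate transport 1 was higher and 2 lower, led by Cftr. The 1 higher was the chloride channel gene Ano1 (0.38 ± 0.10), which lost its call without any 1 of 12 single libraries (adjusted p up to 0.049). Of 10 potassium channel genes 3 were higher, among them the inward rectifier Kcnj2 at 1.24, 1.39, 1.67 and 1.31 TPM against 0.38 to 0.89 TPM (median 0.645) (1.05 ± 0.14). Of 17 amino acid transporters 2 were lower. Of 24 claudin and tight junction genes 2 were higher and 2 lower, with Jam3, a junctional adhesion molecule, at 1.82, 2.37, 3.06 and 2.23 TPM against 0.32 to 1.0 TPM (median 0.56) (1.9 ± 0.18, adjusted p = 1.7e-07). In the higher segment of chromosome 6 the water channel gene Aqp1 was at 2.14, 1.98, 1.93 and 2.01 TPM against 0.33 to 1.24 TPM (median 0.775) (1.3 ± 0.17), and Hpgds, a prostaglandin D synthase gene, at 6.64, 4.95, 8.28 and 6.53 TPM against 15.7 to 25.1 TPM (median 20.1) (-1.62 ± 0.09), the only gene of that segment called lower. Except for Kcnj2 and Jam3, the genes of collecting duct and transport given with values here were picked with their values known.

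Of 13 genes of the hypertonic response and osmolyte handling, 5 were higher and 3 lower, but the members that moved most do not all serve that role. They were Slc14a2 and Osr1, the latter in the list by its symbol only, since it encodes a developmental transcription factor. The near-identical heat shock genes Hspa1a (0.67 ± 0.12) and Hspa1b (0.56 ± 0.06) share 60.3% and 62.3% of their sequence with other genes. Of 57 genes of the primary cilium 3 were higher and 6 lower (median -0.09), of 41 axon guidance genes 4 were higher and 8 lower, and of 27 Wnt pathway genes 5 were higher and 4 lower. Fzd1, a Wnt receptor gene of chromosome 5, was at 11.2, 12.3, 11.3 and 12.6 TPM in subclone 4 and 3.13 to 7.61 TPM (median 4.09) in the others (1.4 ± 0.08, adjusted p = 9.8e-11), Wnt5a (0.8 ± 0.15) was higher and Wnt4 (-0.27 ± 0.05) lower. Plxnd1, a semaphorin receptor gene in the fourth segment of chromosome 6, was at 9.34, 11.6, 11.4 and 11.5 TPM against 17.2 to 33.9 TPM (median 25.7) (-1.22 ± 0.11), -0.68 relative to the segment. The secreted guidance gene Slit2 was higher by 1.41 ± 0.30, but its adjusted p was 0.013 without replicate 4 of subclone 4, and subclone 3, at a mean of 2.91 TPM, exceeded the 2.08 TPM of subclone 4. Hspa1a, Hspa1b, Wnt5a and Wnt4 were picked with their values known.

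Of 40 genes of TGF-beta and BMP signalling 4 were higher and 3 lower, and of 17 Notch genes 3 were higher and 1 lower, among the higher the target gene Hey1 (0.72 ± 0.09), picked with its value known. Of 24 growth factor genes 4 were higher and 4 lower. The 3 that passed 2-fold were Btc, an EGF receptor ligand (1.16 ± 0.19), Fgf9 (1.06 ± 0.24) and Angpt2 (1.21 ± 0.27). All were under 1.5 TPM in subclone 4, so the filter at 1 TPM may bear on their direction. The call of Fgf9 was lost without 1 library of subclone 4 (adjusted p up to 0.017). Of 27 early response and ERK feedback genes 4 were higher and 2 lower. Fos, on chromosome 12, was at 353, 376, 503 and 348 TPM in subclone 4 against 60.01 to 490.02 TPM (median 128) (1.39 ± 0.22), and Egr2 at 32.9, 36.5, 60.7 and 40.2 TPM against 8.21 to 80.03 TPM (median 14.3) (1.14 ± 0.26). Egr2 lost its call without replicate 3 (adjusted p = 0.026) or 4 of subclone 4. Neither was particular to subclone 4, since subclone 1 had means of 387 TPM for Fos and 53.2 TPM for Egr2. Of 25 YAP and TEAD targets 2 were higher and 4 lower, of 5 caveolar genes 2 (Cav1 and Cav2) were lower, and of 31 cAMP signalling genes 3 were higher.

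Stress and metabolic genes moved in both directions. Of 31 genes of the integrated stress response 8 were higher and 4 lower, with Atf4 at 477, 474, 493 and 455 TPM in subclone 4 and 394 to 455 TPM (median 416) in the others (0.17 ± 0.04, adjusted p = 0.0017) and Trib3 at 0.28 ± 0.05. Without replicate 3 of subclone 4 the adjusted p of Atf4 was 0.015. Of 24 unfolded protein response genes 3 were higher and 4 lower, including Eif2ak3. Of 33 genes of glycolysis and the hypoxic response 7 were higher and 5 lower. Gapdh and Tpi1 were lower with chromosome 6, while Ldha (0.33 ± 0.06), on chromosome 7, was higher. Egln3, an oxygen-sensing hydroxylase gene of chromosome 12, was at 8.1, 9.45, 9.81 and 9.28 TPM against 1.52 to 4.68 TPM (median 3.87) (1.4 ± 0.10, adjusted p = 1.8e-09), 1.03 above the chromosome. Adm was higher by 1.4 ± 0.33, and Aldoc by 1.19 ± 0.10, the latter owing to subclone 3, at a mean of 0.445 TPM, beside 11.9 TPM in subclone 1 and 9.45 TPM in subclone 4. Of 48 genes of the NRF2 and glutathione system 10 were higher and 3 lower. Gclm, of glutathione synthesis, was at 133, 131, 138 and 136 TPM against 85.9 to 122 TPM (median 110.2) (0.31 ± 0.06), Gstt2 rose by 1.49 ± 0.21 and Mgst2 by 1.26 ± 0.31, and Ggt1, the ectoenzyme that degrades glutathione, was at 2.06, 1.5, 1.99 and 2.02 TPM against 2.29 to 7.45 TPM (median 4.63) (-1.14 ± 0.15). The calls of Adm and Mgst2 were lost without 1 library of subclone 4, with adjusted p of up to 0.033 and 0.039. Atf4, Trib3, Ldha and Gclm were picked with their values known.

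Among the abundant housekeeping genes, those called lay mostly on the shifted segments. Of 80 cytosolic ribosomal protein genes 3 were higher and 1 lower, namely Rps7, Rpl36al and Rps29 of chromosome 12 and Rpl32 of chromosome 6. Of 85 nuclear-encoded respiratory chain genes 3 were higher and 4 lower, 5 of these on the shifted segments. Of the 13 protein genes of the mitochondrial genome, mt-Co1 was lower (-0.44 ± 0.11), a gene with 51.1% of its sequence shared with nuclear copies, and not called without replicate 1 of subclone 4 (adjusted p = 0.042); the mitochondrial genome and those copies took 8.35% to 11.7% of TPM in subclone 4 and 9.31% to 15.2% in the others. Of 41 cell cycle genes 2 were higher and 4 lower, of 33 cholesterol and fatty acid synthesis genes 3 were higher, of 22 p53 targets 3 were higher and 2 lower, of 36 interferon response genes 6 were higher and 1 lower, and of 21 genes of antigen presentation by MHC class I 2 were higher. Perp, a desmosomal p53 target, was at 11.9, 12.7, 12.8 and 12.5 TPM in subclone 4 and 1.47 to 6.93 TPM (median 4.54) in the others (1.7 ± 0.08, adjusted p = 1.5e-11), and the nucleic acid sensor gene Zbp1 at 1.68, 2.0, 1.61 and 1.91 TPM against 0.13 to 1.38 TPM (median 0.79) (1.26 ± 0.28), the call of Zbp1 being lost without replicate 2 (adjusted p = 0.011) or 4 of subclone 4.

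Imprinted genes, which are expressed from 1 parental copy, gave 5 higher and 4 lower of 26 kept, with a median of 0.00. On the lower first segment of chromosome 6, Sgce, Ppp1r9a and Peg10, chosen after their values were seen, were lower (-0.78 ± 0.05, -0.71 ± 0.15 and -0.55 ± 0.10), Ppp1r9a not without replicate 2 or 3 of subclone 4 (adjusted p up to 0.012). Mest, in the unshifted second segment, was at 2.32, 2.83, 3.06 and 2.54 TPM in subclone 4 against 0.58 to 1.53 TPM (median 1.12) (1.26 ± 0.15). On chromosome 7, Phlda2 was at 7.67, 6.06, 7.13 and 7.71 TPM against 1.44 to 4.26 TPM (median 1.94) (1.7 ± 0.14, adjusted p = 1.6e-08), and its neighbour Cdkn1c, a cell cycle inhibitor, at a mean of 6.74 TPM, which was close to the 5.66 TPM and 6.36 TPM of subclones 2 and 3 and above the 1.495 TPM and 0.815 TPM of subclones 1 and 5. Snrpn was at 0 in subclone 2, which gave its difference of 1.28 ± 0.09; without subclone 2 it was -0.11. Of 23 kept Hox genes, which mark position along the body axis and the urogenital tract, 7 were higher and none lower. Hoxa10 was at 141, 140.4, 138 and 138 TPM in subclone 4 and 93.7 to 111 TPM (median 99.9) in the others (0.47 ± 0.04, adjusted p = 6.2e-09), and Hoxa11 at 12.9, 14.6, 13.5 and 12.4 TPM against 6.76 to 10.1 TPM (median 8.01) (0.74 ± 0.07). Both lie in the unshifted second segment of chromosome 6 and were picked with their values known.

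Of 27 genes of laminins, integrins and basement membrane 4 were higher and 4 lower, and of 20 matrix proteases and inhibitors 3 were higher and 3 lower. Timp3, an inhibitor of matrix proteases, had a fitted difference of 1.53 ± 0.11, but it was nearly off in subclone 1 alone, at a mean of 0.02 TPM, beside 5.23 TPM, 4.005 TPM and 8.29 TPM in subclones 2, 3 and 5 and 6.14 TPM in subclone 4. None of 8 collagen genes passed the test. Of 8 clustered protocadherins 1 was higher, and of 7 kept genes of fibroblasts and mesenchyme 2 were lower, Twist1 and Vim. None of 10 endothelial genes was kept, 1 of 2 leukocyte genes was higher (Cd68, 0.78), and 1 of 3 genes of nephron parts was higher (Umod, 0.41 ± 0.09, with subclone 5 above subclone 4 at means of 11.6 TPM and 4.64 TPM, and an adjusted p of 0.018 without replicate 1 of subclone 4). The part of other cell types in the differences was not tested.

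**Figure D4:**
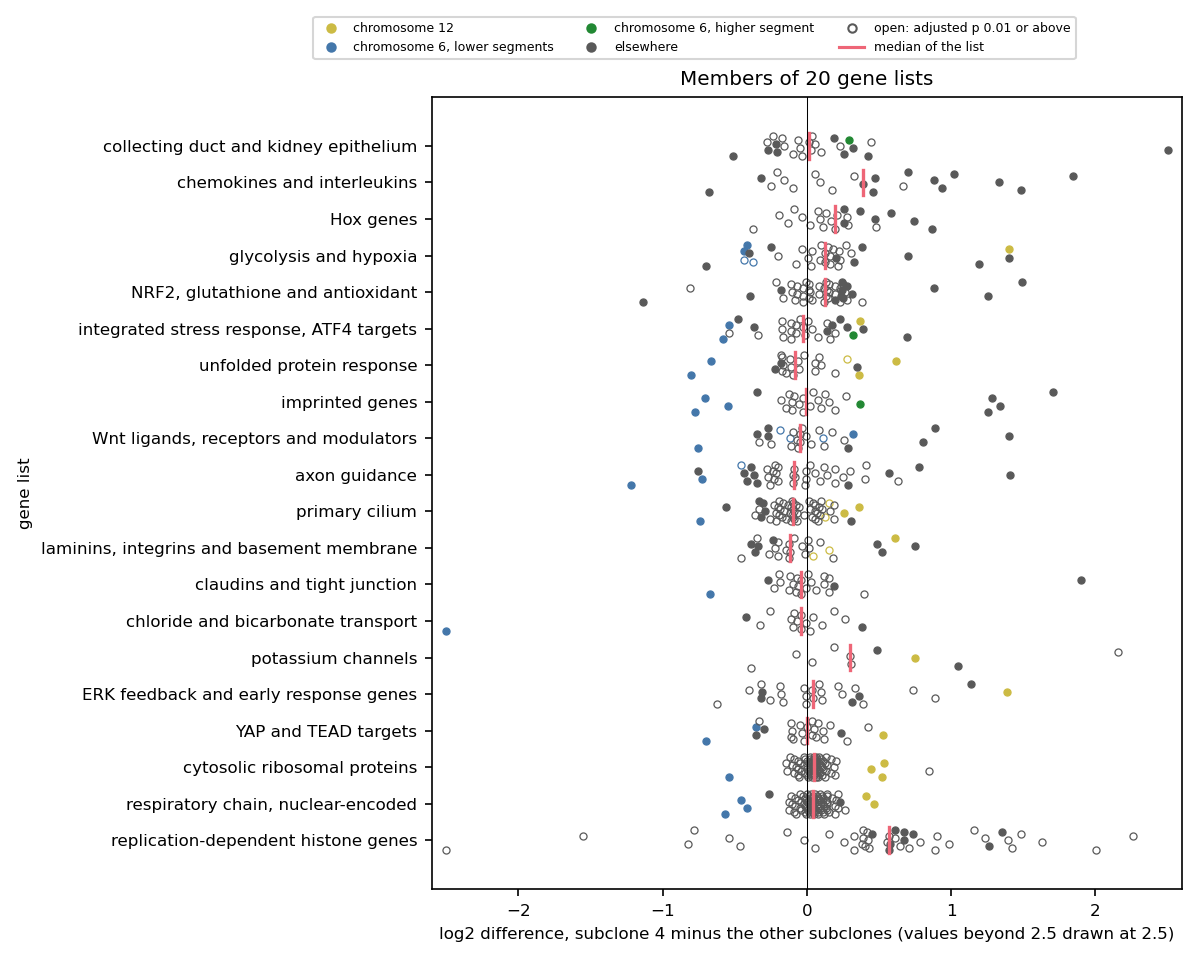
Log2 difference, subclone 4 minus the mean of the other subclones, for the kept members of 20 gene lists. Filled points passed an adjusted p of 0.01 in limma, and red bars are list medians. Colours give the shifted region of chromosome 6 or 12 a gene lies in, and chromosome 5 is not coloured. The chemokine list has the highest median after the histone list, at 0.39. Points of chromosome 6 stand at the lower edge of the integrated stress response, unfolded protein response, ribosomal and respiratory chain lists. Points of chromosome 12 stand at the upper edge of the unfolded protein response and respiratory chain lists.

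Chromosome 5 showed a shift of a different order. Its median over 843 genes was 0.066 to 0.086 in the 4 libraries of subclone 4 and -0.056 to 0.012 in the others, a difference of 0.098 or a level of 107%. The libraries were apart, 633 of 843 genes were above 0 and all 16 windows of 10 Mb were above 0, from 0.06 to 0.34. Of its genes, 112 (13.3%) were higher and 13 (1.54%) lower. The size is well below that of 1 copy in 4, and no breakpoint was found along it. On the remaining 17 chromosomes the shift ran from -0.042 to 0.015.

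The test treats libraries of a clone as replicates, so it asks whether subclone 4 differs from this set of 4 clones and not whether clones in general do. With the 5 subclone means as the units, 1 gene passed an adjusted p of 0.01 in limma, 173 passed 0.05 and 1674 had an unadjusted p below 0.05.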

How the data were processed

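RNA of mIMCD-3 subclones was sequenced, and the values used are the TPM of 20 libraries, 4 from each of 5 subclones, as deposited by the authors in 1 table. Per the study's methods and the submitters' processing notes (CASAVA 1.8, STAR 2.7.3a, RSEM 1.3.1), reads were aligned to GRCm38 with STAR and TPM per gene were estimated by the authors with RSEM. TPM hold no read counts, so no count model and no counting error could be given. Reads shared between similar genes are divided by estimate, and strand use is not given in the sources used here. A second table, which holds polyclonal wild-type and WT5 libraries, was not used, and 0 columns of other samples were present in the table used.

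Genes with a mean of at least 1 TPM in subclone 4 or in the 16 others were kept. Differences were fitted on log2(TPM + 0.1) in limma 3.58.1 (R 4.3.3), with 1 coefficient per subclone and the contrast of subclone 4 minus the equally weighted mean of the other 4, and p-values were adjusted by Benjamini-Hochberg over all genes kept. Fold changes on this scale understate those of low genes. Gene positions were taken from GENCODE M21 on GRCm38. Chromosome and segment shifts are medians over genes and were given no p-value. Segments were set by the least absolute deviation from segment medians, with a penalty added after the data had been seen and at least 15 genes per segment. The share of a gene's sequence held by other genes was counted in stretches of 50 bases. Python 3.11.15 with pandas 2.3.3, numpy 2.4.6 and matplotlib 3.10.9 did the rest. The fit and the segmentation were tested on simulated data.

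Genes were named by rule: the 12 largest increases and decreases past 2-fold with no overlap, the 5 most abundant protein-coding genes of chromosome 12 and of each chromosome 6 segment, up to 3 in each direction that departed from their region, up to 4 members of each list past 2-fold, and the study's genes; others are said to have been picked with their values known. Results for a few genes that this rule or a marker list names are not reported here. The members, lists and tests were chosen with earlier results of these data known, and lists are described by counts without a set test. Replicate numbers gave no general pairing of the libraries. The alternatives tried covered the test, the unit of replication, the pseudocount, the filters, the scaling, the genes, and leaving out each subclone or library.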

Additional observations from a re-analysis of the deposited data

Results flagged for a closer look

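In 10 of 153 groups of 4 subclone 4 libraries looked at, the highest or lowest library lay apart from the other 3 by more than the critical gap for 4 values, given as a share of the group's range; about 5% of groups pass it by chance. The gaps were 0.913 for Spin2c, with 1 library at 0, 0.859 for Folr1 (2.23, 2.9, 2.94 and 3.01 TPM), 0.913 for Hoxc4 (0.96, 1.17, 1.19 and 1.19 TPM), 0.875 for Ggt1 (2.06, 1.5, 1.99 and 2.02 TPM) and 0.946 for Plxnd1 (9.34, 11.6, 11.4 and 11.5 TPM).

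Replicate 1 of subclone 4 was the library apart in both mitochondrial genes that passed, mt-Co1 (7354, 11454, 11485 and 11219 TPM, gap 0.936) and mt-Atp8 (14709.9, 18869, 18786 and 18449 TPM, gap 0.899), and also in Rpl36al (0.935) and Gapdh (0.865). Replicate 2 was apart in Ldha (638, 614, 641 and 639 TPM, gap 0.888). In mt-Co1 the other 3 libraries of subclone 4 were just under the lowest of the 16 others, at 11736 TPM.

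Chromosome 12 moved in opposite directions in 2 subclones. Its median was 0.31 higher in subclone 4 than in subclones 1, 2 and 3, and differed by -0.24 in subclone 5, with every library of each on its own side. This difference between subclones was not tested.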

How the results depend on the processing

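With the 16 other libraries as 1 group, 1099 genes were called and 111 of them differed more than 2-fold, beside 1730 and 169. With the 5 subclone means as units 1 gene (mt-Atp8) passed, also past 2-fold. Z-scores within libraries gave 2601 calls, and an adjusted p below 0.05 gave 2690. The genes past 2-fold numbered 62 with a mean of at least 5 TPM, 264 with no filter and 74 with a pseudocount of 1. The shift of chromosome 12 was 0.35 with a pseudocount of 1, 0.33 with no filter, 0.39 as a mean over genes, and 0.39, 0.40, 0.39 and 0.31 without subclones 1, 2, 3 and 5 in turn. That of chromosome 6 was -0.29 with a pseudocount of 1, -0.12 with no filter, -0.35 with at least 5 TPM and -0.21 as a mean, and that of its lower segments -0.51, -0.38 with no filter and -0.49 as a mean. In these cases the direction stayed as given and the cause was not tested. Without 1 library at a time, 1316 (without subclone 4 replicate 4) to 2051 (without subclone 5 replicate 1) genes were called, 157 to 176 past 2-fold. The shifts then ran from 0.37 to 0.38 on chromosome 12, from -0.33 to -0.31 on chromosome 6 and from -0.54 to -0.53 in the lower segments.

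With replicate number as a block, 1585 genes were called and 168 passed 2-fold. Same-numbered libraries did not deviate together as a rule, although some pairs did. Over 40 pairs the correlation ran from -0.215 to 0.348 with a median of -0.014, and 5 pairs exceeded 0.1. Pairs with unlike numbers were not compared in this way. Centring the shifted regions, chosen after seeing the data, left 1155 calls, 692 higher and 463 lower, and 162 past 2-fold. Of the 24 genes with the largest differences, none passed with subclone means as units, Prrg1 lost its call with the 16 libraries as 1 group and Spin2c with the Welch test. Without read counts, how far low levels reflect counting error is unknown.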

Other observations

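The replication-dependent histone genes, a list drawn up after the data had been seen, leaned upwards in subclone 4. Of 67 listed, 46 were kept, of which 9 were higher and 0 lower in limma at an adjusted p below 0.01, with a median of 0.57 and single values from -2.59 to 2.26. Hist2h2be was at 26.8, 27.4, 26.4 and 25.9 TPM in subclone 4 and 13.4 to 19.5 TPM (median 16.8) in the others (0.67 ± 0.05), Hist1h1c at 38.4, 36.4, 33.8 and 34.1 TPM against 20.7 to 33.5 TPM (median 25.8) (0.45 ± 0.06) and Hist1h4h at 11.7, 10.2, 7.87 and 11.8 TPM against 1.77 to 7.07 TPM (median 4.09) (1.35 ± 0.16). Hist3h2ba, on chromosome 11, was higher by 0.67 ± 0.12, and Hist2h2aa2, whose whole sequence is shared with another gene, by 1.26 ± 0.29, with its call lost without 1 library of subclone 4 (adjusted p up to 0.023). The genes lie on several chromosomes, and the segmentation also set apart a stretch of chromosome 13 from 21.7 to 23.8 Mb, 41 genes, with library medians of 0.284 to 0.536 in subclone 4 and -0.368 to 0.356 in the others, which overlap. Many of these genes are nearly identical to each other and their transcripts lack the usual poly(A) tail, so their levels are uncertain.

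Each of the other subclones was set against its own 4 counterparts in the same way, with shared libraries in all of these comparisons. Subclone 1 differed in 420 genes, 91 of them more than 2-fold, subclone 2 in 471 and 89, subclone 3 in 403 and 82, and subclone 5 in 1431 and 125. The fitted difference of mt-Atp8 in subclone 4 was 4.11 ± 3.93 (adjusted p = 0.52), because some of the other libraries listed it at 0 while others reached 29767 TPM.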
